A study of Mus musculus with 48 samples.

Results

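Ucp1, the gene of uncoupling protein 1, was followed through 48 libraries of poly(A) RNA from mouse fat. It is 1 of the 47729 genes of the deposited table, and its row was found by its symbol, not by a measured value. The choice of Ucp1 itself was made with earlier results of these data known. The libraries come from male mice and from 3 depots: BAT is brown fat, SFAT is white fat from under the skin, and EFAT is visceral white fat. Within each depot there were 4 groups of 4 libraries. These were mice without Cth (Cth-/-) on a cystine-free diet (CysF), Cth-/- mice on the control diet (CTRL), mice with both copies of Cth (Cth+/+) on CysF, and Cth+/+ mice on CTRL. Every group ate its diet for 6 days. Cth encodes cystathionine gamma-lyase, the enzyme that releases cysteine from cystathionine, so that Cth-/- mice on CysF lack both the enzyme and dietary cystine. The study's title states that cysteine shortage sets off heat production in fat, and Ucp1 is the usual marker of that process. The labels used here name no strain or age, and not the way in which the Cth allele was made.

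Uncoupling protein 1 sits in the inner mitochondrial membrane of brown and beige fat cells and lets protons return to the matrix without making ATP, so that fuel is burnt as heat. Its gene is switched on when noradrenaline from sympathetic nerves acts on beta-adrenergic receptors and raises cyclic AMP, through kinases and factors such as PPAR gamma, PPAR alpha, PGC-1 alpha, PRDM16 and EBF2. Brown fat makes it at rest, whereas white fat carries little until cold or a beta-agonist induces beige cells.

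Ucp1 (ENSMUSG00000031710) lies on chromosome 8 of GRCm38, chr8:83290352-83298452, on the plus strand. The annotation gives it 6 exons in a single protein-coding transcript of 1636 bases, and no other gene overlaps it. None of the 1587 windows of 50 bases in that transcript occurs in a transcript of another gene. The 300 bases around its start, chr8:83290098-83290397 on the plus strand (RefSeq, GRCm38.p6), are shown because this is the stretch just upstream of the gene whose RNA is counted below. Capitals mark 3 motifs found by a search for their letters alone, and whether these sites control Ucp1 was not tested.
Ucp1 promoter: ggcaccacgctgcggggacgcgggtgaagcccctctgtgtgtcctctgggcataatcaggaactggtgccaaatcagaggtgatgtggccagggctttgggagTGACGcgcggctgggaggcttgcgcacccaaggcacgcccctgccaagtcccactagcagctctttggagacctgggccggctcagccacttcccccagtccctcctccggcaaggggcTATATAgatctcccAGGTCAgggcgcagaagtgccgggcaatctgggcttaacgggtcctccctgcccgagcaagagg
The first capitals, TGACG, are the half-site of the cyclic AMP response element. They begin 147 bases before the start. The second, TATATA, is a TATA box 28 bases before it, and the last, AGGTCA, is a nuclear receptor half-site 14 bases before it. Both strands were searched. Each motif occurred once, on the plus strand, and none overlapped another. Among 32851 mouse promoters of this length, TGACG was found in 20.8%, TATATA in 5.67% and AGGTCA in 16.3%.

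Levels below are CPM (counts per library total, TMM-scaled across the 48 libraries). Depth per library, in M expected counts, spanned 22.1 to 46.0 for BAT, while SFAT libraries had 16.2 to 39.0 and EFAT libraries 18.7 to 36.1. Cth itself had 0 to 6 reads in the 24 Cth-/- libraries and 8 to 389 reads in the 24 Cth+/+ libraries. The labels number the libraries between 1 and 20 within each depot but do not state that the numbers are separate animals. The p-values therefore take in the spread among these samples alone, and that spread may be technical. Of the 48, 6 libraries stood apart by the reads of other tissues or by their mitochondrial share: BAT 8 (skeletal muscle), SFAT 14 (B cells), SFAT 20 (31.3% mitochondrial reads), EFAT 16 and 20 (epididymis) and EFAT 11 (brown fat genes). BAT 10 and BAT 12 had 44.3 and 45.7% mitochondrial reads, against 21.8 to 37.5% in the other BAT libraries, and were not among these 6. Reads of the pseudogene Gm43512 were below 0.1 CPM in some libraries (set A) and higher in 7 libraries of each depot (set B), a division that the labels do not mention. Changes of Ucp1 results without those 6 libraries, or within a set, are given beside them. In BAT and SFAT set B holds 1 library of the Cth-/- CysF group (number 20 in both), and in EFAT set A holds 1 of that group (number 16) and set B 1 of the Cth-/- CTRL group (number 15), so that fits within these sets assume that the lone library varies like the other groups.

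Ucp1 spanned the whole range of the data across depots. In BAT it reached 10282, 8581, 7393 and 6644 CPM in Cth-/- CysF libraries (numbers 16, 17, 18 and 20) and 2612, 4479, 2279 and 4580 CPM in Cth-/- CTRL libraries (numbers 12 to 15). It had 3333, 3783, 3647 and 4869 CPM in Cth+/+ CysF libraries (numbers 7, 8, 10 and 11) and 3122, 2295, 3210 and 4092 CPM in Cth+/+ CTRL libraries (numbers 1 to 4). All 4 Cth-/- CysF libraries lay above the other 12 BAT libraries, which overlapped each other.

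In SFAT, Ucp1 was present at 1095, 722, 112 and 643 CPM in Cth-/- CysF libraries and at 51.2, 141, 30.2 and 108 CPM in Cth-/- CTRL libraries. Cth+/+ CysF libraries held 3.01, 0.814, 16.0 and 1.27 CPM, and Cth+/+ CTRL libraries 21.4, 7.25, 1.53 and 54.9 CPM. Number 18 of the Cth-/- CysF group fell among the Cth-/- CTRL libraries, and the other 3 lay above all of them. Every Cth-/- CysF library was above every Cth+/+ library of the depot.

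In EFAT, Ucp1 was near the limit of detection, with 0 to 7 reads in 13 of 16 libraries. The level was 0.174, 1.07, 0.0659 and 0.160 CPM in Cth-/- CysF libraries and 0.0234, 0.176, 0.0218 and 2.87 CPM in Cth-/- CTRL libraries. Cth+/+ CysF libraries held 0.0346, 0, 0 and 140.5 CPM, and Cth+/+ CTRL libraries 0, 0.0689, 0.194 and 0.0308 CPM. A count of 0 allows up to 3 reads, or 0.0821 CPM in number 8, 0.0940 CPM in number 10 and 0.0971 CPM in number 1. The exceptions were number 11 with 5168 reads, number 15 with 122 reads and number 17 with 32 reads.

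**Figure D1:**
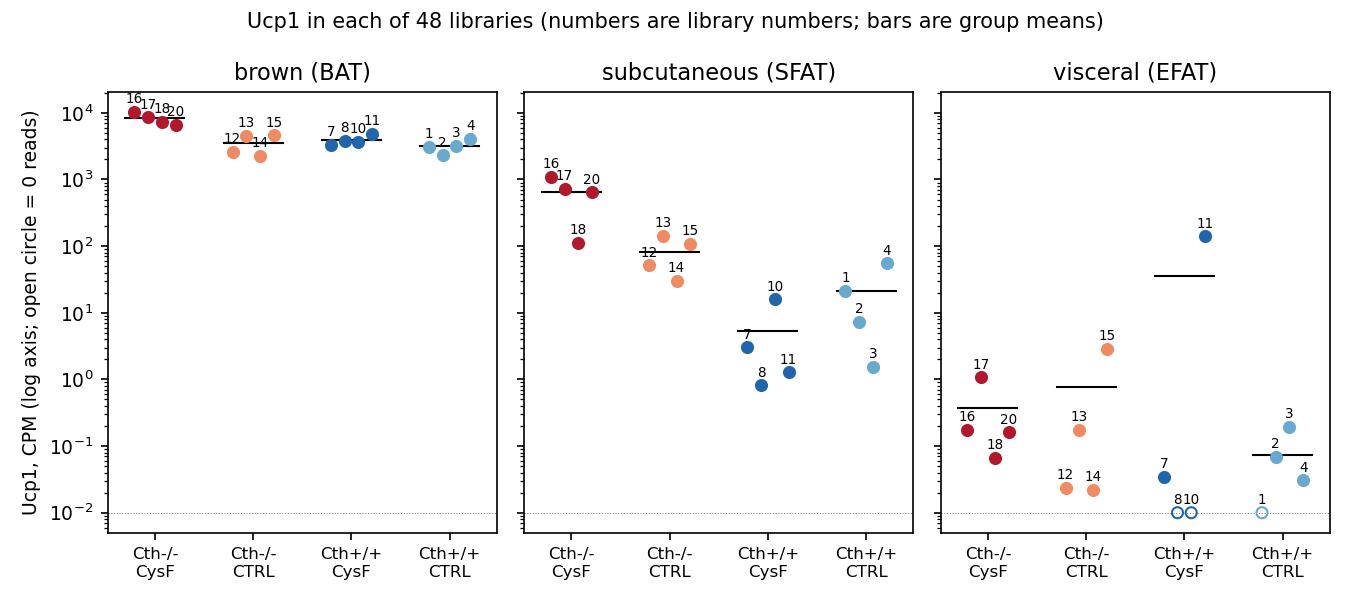
Ucp1 level (CPM, log axis) in each of the 48 libraries, by depot and group, with library numbers beside the points, bars at the group means and open circles on the dotted line for 0 reads. The 4 BAT libraries of Cth-/- mice on CysF lie at 6644 to 10282 CPM, above all others, and EFAT number 11 stands alone at 140.5 CPM in its depot.

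Ordered by mean, the 4 BAT groups came first: Cth-/- CysF at 8225 ± 1586 CPM, Cth+/+ CysF at 3908 ± 668, Cth-/- CTRL at 3488 ± 1212 and Cth+/+ CTRL at 3180 ± 735 (SD, n = 4 each here and below). They were followed by SFAT Cth-/- CysF at 643 ± 405 CPM and SFAT Cth-/- CTRL at 82.7 ± 51.1 CPM. EFAT Cth+/+ CysF came next at 35.1 ± 70.3 CPM by the single library 11, and was the last of the 12 groups by its median of 0.0173 CPM. SFAT Cth+/+ CTRL had 21.3 ± 23.9 CPM and SFAT Cth+/+ CysF 5.26 ± 7.19 CPM, above the other EFAT groups at 0.773, 0.368 and 0.0735 CPM for Cth-/- CTRL, Cth-/- CysF and Cth+/+ CTRL. Of the 11 pairs of neighbours in this order, 2 did not overlap: BAT Cth-/- CysF over BAT Cth+/+ CysF, and BAT Cth+/+ CTRL over SFAT Cth-/- CysF. No pair passed the exact permutation test of log2 CPM after adjustment over the 11 pairs, the smallest adjusted p being 0.157. With 4 libraries against 4 its smallest raw p is 0.0286.

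In brown fat of Cth-/- mice, Ucp1 rose with CysF. The log2 fold change of CysF over CTRL was 1.25 ± 0.22 (SE), or 2.38-fold, with an adjusted p of 0.00164 (edgeR's quasi-likelihood test with Benjamini-Hochberg adjustment, here and for all adjusted p values below unless another test is named). It ranked 178 of the 14528 genes tested by size of rise, where 7.81% of genes were called higher. In Cth+/+ mice the diet gave 0.33 ± 0.22 (adjusted p = 0.699), where 0.0551% of genes were called higher. On CysF, Ucp1 was higher in Cth-/- than in Cth+/+ mice by 1.07 ± 0.22 (adjusted p = 0.00185), in a comparison that called 14.5% of genes higher. On CTRL the genotypes differed by 0.15 ± 0.22 (adjusted p = 0.762; 1.29% of genes called higher), and this difference turned to -0.021 under a scaling to adipocyte genes and -0.088 within set B. The diet value of Cth+/+ mice turned to -0.022 within set A.

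The test of the difference between the diet responses, the genotype by diet interaction, gave 0.93 ± 0.31 in BAT (adjusted p = 0.0885; 2.1% of genes called higher). It was past the threshold with DESeq2 (adjusted p = 0.0287) and within set A (1.02, adjusted p = 0.0350). The exact permutation test gave p = 0.0286, its smallest value, for both called comparisons of BAT, and 0.114 after adjustment over the 12 comparisons of groups within depots.

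A set of adipocyte genes moved with this rise in brown fat. The summed level of 12 pan-adipocyte markers was 32675 to 35444 CPM in BAT Cth-/- CysF libraries, 19949 to 25206 CPM in Cth-/- CTRL, 18383 to 23675 CPM in Cth+/+ CysF and 19663 to 21773 CPM in Cth+/+ CTRL. Abundant members weigh most in such a sum, and not every member need follow it. Adipoq, 1 of the 12, overlapped at 669 to 881 CPM in Cth-/- CysF libraries and 484 to 750 CPM in Cth-/- CTRL libraries. In bulk tissue, more cells of a type and more RNA per cell cannot be told apart. Scaled to the sum of 9 of these markers instead of to all genes, the diet response of Ucp1 in Cth-/- mice was 0.64 (adjusted p = 0.0124) and the genotype difference on CysF was 0.41 (adjusted p = 0.0863). That scaling moved the median of all genes by -0.64 in the diet comparison and -0.67 in the genotype comparison. Relative to that median Ucp1 changed by 1.29 and 1.09, against 1.27 and 1.09 with TMM. The summed level of 8 brown fat markers other than Ucp1, most of it from Cidea, overlapped at 1907 to 2126 CPM in Cth-/- CysF libraries and 1738 to 2249 CPM in Cth-/- CTRL libraries. Of its low members, Zic1 had 12.3 to 13.9 CPM against 7.62 to 12.1 CPM and Lhx8 2.16 to 2.89 CPM against 1.80 to 2.15 CPM, without overlap. Fibroblast markers were lower, at 293 to 358 CPM in Cth-/- CysF libraries against 794 to 1043 CPM in Cth-/- CTRL libraries, and 16 skeletal muscle markers summed to 88.8 to 346 CPM against 272 to 1813 CPM. With the muscle score as a covariate the diet response was 1.49 (adjusted p = 0.0156), and the part of the fibroblast markers in it was not tested.

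In subcutaneous fat the diet responses of the genotypes differed by the interaction test. In Cth-/- mice Ucp1 rose by 3.00 ± 1.01 on CysF, or 7.99-fold (adjusted p = 0.0394), which ranked 33 of 16555 genes by size of rise where 11.8% were called higher. In Cth+/+ mice it had a log2 fold change of -2.05 ± 1.02 (adjusted p = 0.383), where 0.0544% of genes were called higher and 0.0121% lower. The interaction of 5.05 ± 1.43 passed the test (adjusted p = 0.0202) and ranked 11 of 16555, with 9.39% of genes called higher. On CysF, Ucp1 was higher in Cth-/- than in Cth+/+ mice by 6.98 ± 1.23 (adjusted p = 4.37e-04), with a ratio of the means of 122, which ranked 3 of 16555 where 18.1% of genes were called higher. On CTRL the genotype difference was 1.93 ± 0.98 (adjusted p = 0.472; 0.0423% of genes called higher).

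**Figure D2:**
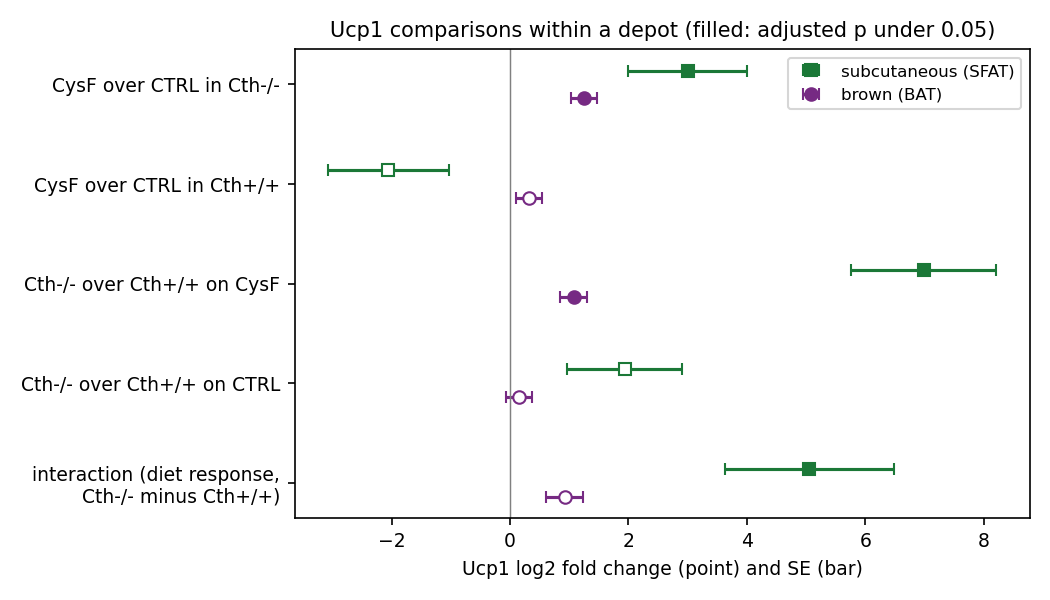
Log2 fold changes of Ucp1 (points) with their SE (bars) in the 5 comparisons within SFAT (squares) and BAT (circles), filled where the adjusted p was under 0.05. The genotype difference on CysF is 6.98 in SFAT and 1.07 in BAT, and the diet in Cth+/+ mice gives -2.05 in SFAT and 0.33 in BAT.

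The diet call in Cth-/- SFAT was near the threshold, while the genotype call on CysF was further from it. The diet call was lost without any single one of numbers 1, 12, 13, 14, 15, 16, 17 and 20 (log2 fold changes of 2.63 to 3.38 over all numbers left out, adjusted p up to 0.0988). It was also lost within set A (2.38, adjusted p = 0.0662), within set B (4.06, adjusted p = 0.0983) and without SFAT 14 and 20 (2.70, adjusted p = 0.123), and the exact permutation test gave p = 0.0571. The interaction was lost without number 4 (3.93, adjusted p = 0.0599) and within set B (5.62, adjusted p = 0.0982). The genotype difference on CysF passed in each of these edgeR fits, with 6.14 and an adjusted p of 0.0322 within set B, where the Cth-/- CysF group is SFAT 20 alone. Its exact permutation p was 0.0286, the smallest value, and 0.114 after adjustment over the 12 comparisons.

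Cell-type markers moved with Ucp1 in this depot as well. The 12 pan-adipocyte markers summed to 22865 to 26930 CPM in SFAT Cth-/- CysF libraries and 15529 to 18707 CPM in Cth-/- CTRL libraries, and fibroblast markers to 1328 to 1722 CPM against 4754 to 11634 CPM. Here too abundant members weigh most in the sum. Adipoq, 1 of the 12, overlapped at 1336 to 1889 CPM in Cth-/- CysF libraries and 1484 to 1583 CPM in Cth-/- CTRL libraries. Scaled to adipocyte genes, which moved the median of all genes by -0.61, the diet response of Ucp1 was 2.35 (adjusted p = 0.0469), the interaction 4.10 (adjusted p = 0.0179) and the genotype difference on CysF 6.13 (adjusted p = 2.26e-04). The brown fat markers other than Ucp1 summed to 221 to 377 CPM in Cth-/- CysF libraries and 155 to 240 CPM in Cth-/- CTRL libraries. Macrophage markers were at 599.8 to 1033 CPM in Cth-/- CysF libraries and 998 to 2972 CPM in Cth-/- CTRL libraries. The part of the fibroblast and macrophage markers in the Ucp1 response was not tested. Summed over 6 genes, beige markers such as Cited1 and Tmem26 did not follow Ucp1, at 17.0 to 23.9 CPM in Cth-/- CysF libraries and 21.5 to 28.0 CPM in Cth-/- CTRL libraries. Zic1, a factor of classical brown fat, had 3 reads in each of the 4 Cth-/- CysF libraries (0.108 ± 0.0344 CPM), against 13.4 ± 0.776 CPM in BAT of the same group. Of the other brown fat markers, Lhx8 (2.45 against 2.51 CPM), Ebf2 (47.1 against 68.7 CPM) and Prdm16 (15.4 against 39.3 CPM) were nearer their BAT level. Epsti1 was above it (5.73 against 0.419 CPM), and Cidea, Cox8b and Cox7a1 were at 13.4, 17.7 and 8.55% of it.

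In visceral fat Ucp1 did not pass the filter on low counts, since 3 of 16 libraries exceeded 10 reads, so that an exact two-sided permutation test of log2 CPM replaced edgeR. No comparison within the depot passed, with exact permutation p of 0.943 for the diet in Cth-/- mice, 0.886 for the diet in Cth+/+ mice, 1 for the genotype on CysF and 0.543 for the genotype on CTRL. Without the filter edgeR called the genotype on CysF, with a log2 fold change of -6.62 (adjusted p = 0.0408). That value rests on EFAT 11: without this library the difference in mean log2 CPM was 1.95 (exact permutation p = 0.0571, the smallest it allows), the opposite sign.

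Between depots, Ucp1 showed the largest brown over visceral fold change of 18348 genes in Cth+/+ CTRL mice, at 15.28 ± 2.13 (adjusted p = 8.92e-08; 26.9% of genes called higher). The fold change of BAT over SFAT was 7.25 ± 1.47 (adjusted p = 6.32e-05; 25.9% called higher) and that of SFAT over EFAT 8.03 ± 1.89 (adjusted p = 0.00240; 5.66% called higher). No difference of the diet response in Cth-/- mice between depots passed the test. SFAT minus BAT was 1.74 ± 1.59 (adjusted p = 0.699; 1.34% of genes called higher), EFAT minus BAT -2.31 ± 2.02 (adjusted p = 0.462; 8.93% called lower) and SFAT minus EFAT 4.05 ± 2.02 (adjusted p = 0.235; 3.35% called higher). Without number 15 the EFAT minus BAT difference turned to 0.91 and the SFAT minus EFAT difference was 0.83. These tests come from a fit of all 48 libraries, which shares the spread of Ucp1 between depots. In that fit the BAT diet response in Cth-/- mice was 1.24 and was no longer called (adjusted p = 0.524).

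Libraries of 1 group differed more in Ucp1 than in most genes in BAT and SFAT. Its SD of log2 CPM within groups was 0.36 in BAT and 1.69 in SFAT, larger than that of 88.5 and 99.8% of genes with at least 5 CPM in the depot, whose medians were 0.20 in both. In EFAT the mean of Ucp1 reached 5 CPM through number 11 alone, and its SD was not ranked. Within Cth-/- CTRL, numbers 12 and 14 were the lower pair and numbers 13 and 15 the higher pair in both BAT and SFAT. Numbers 12 and 14 belonged to set B in both depots and 13 and 15 to set A. In Cth-/- CysF, BAT libraries fell in the order 16, 17, 18 and 20, and SFAT libraries in the order 16, 17, 20 and 18. In BAT, set B libraries had the lower Ucp1 in Cth-/- CysF (6644 CPM, 1 library, against 7393 to 10282 CPM), Cth-/- CTRL (2279 and 2612 against 4479 and 4580 CPM) and Cth+/+ CTRL (2295 and 3122 against 3210 and 4092 CPM), but not in Cth+/+ CysF (3647 and 4869 against 3333 and 3783 CPM). Set B libraries of BAT also had the larger mitochondrial share of reads, 28.6 to 45.7% against 21.8 to 27.9% in set A. Within set A the BAT diet response of Cth-/- mice was 1.00 (adjusted p = 0.00562), and within set B, with a single Cth-/- CysF library, 1.48 (adjusted p = 0.0405). The genotype difference on CysF in BAT was 1.31 within set A (adjusted p = 5.59e-04) and 0.69 within set B, where it was not called (adjusted p = 0.183).

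Per kilobase of exon, Ucp1 was among the highest nuclear genes of brown fat. It averaged 5027 ± 970 CPM per kilobase in BAT Cth-/- CysF libraries, rank 3 of 21845 nuclear protein-coding genes, 2132 ± 741 (rank 4) in Cth-/- CTRL, 2389 ± 408 (rank 4) in Cth+/+ CysF and 1944 ± 449 (rank 5) in Cth+/+ CTRL. In SFAT it averaged 393 ± 248 CPM per kilobase (rank 31) in Cth-/- CysF libraries, 50.6 ± 31.3 (rank 480) in Cth-/- CTRL, 3.22 ± 4.39 (rank 7233) in Cth+/+ CysF and 13.0 ± 14.6 (rank 2252) in Cth+/+ CTRL. Its paralogs stood far below it in brown fat. Ucp3, a carrier best known from skeletal muscle, had 50.1 ± 5.18 CPM per kilobase in BAT Cth-/- CysF and 35.7 ± 7.46 in Cth-/- CTRL. Ucp2, the widely expressed paralog, had 8.89 ± 0.657 and 7.35 ± 2.73. In SFAT Cth+/+ libraries Ucp2 had 14.0 ± 3.74 CPM per kilobase on CysF, above Ucp1. On CTRL it had 8.63 ± 1.09 (7.35 to 10.0), within the Ucp1 range of 0.934 to 33.6. The order of the 2 genes depends on the lengths used, which are unions of all annotated exons: 6989 bases for Ucp2 and 1636 for Ucp1.

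The diet response of the paralogs in Cth-/- mice differed by depot in its call, a difference that was not tested. Ucp3 rose by 0.50 ± 0.12 in BAT (adjusted p = 0.00879), a call that was lost with the muscle score as a covariate. With the scaling to adipocyte genes it had -0.12, which was 0.53 above the median of all genes against 0.52 with TMM. It had 0.13 ± 0.18 in SFAT (adjusted p = 0.642), where it had -0.47 with that scaling (0.11 above the median, against 0.10 with TMM), and -0.36 ± 0.45 in EFAT (adjusted p = 0.569), where it turned to 0.95 within set B. Ucp2 rose in EFAT by 0.70 ± 0.16 (adjusted p = 0.00652), and had 0.27 ± 0.22 in BAT (adjusted p = 0.416) and 0.17 ± 0.21 in SFAT (adjusted p = 0.581), both negative with that scaling (-0.40 and -0.44) but above its median by 0.26 and 0.14. Of the genes next to Ucp1, Elmod2 lies on the minus strand, with its nearer edge, the end of the gene, 14180 bases beyond Ucp1. It had log2 fold changes of 0.13 ± 0.16, 0.31 ± 0.14 and -0.05 ± 0.15 in BAT, SFAT and EFAT (adjusted p of 0.617, 0.112 and 0.808). Tbc1d9 ends 17418 bases before Ucp1 and fell in SFAT, by a log2 fold change of -0.84 ± 0.20 (adjusted p = 0.00593), with 0.08 ± 0.23 in BAT and 0.16 ± 0.36 in EFAT (adjusted p of 0.837 and 0.763).

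The genes around Ucp1 in the heat pathway were read from 7 lists with 116 genes. In BAT of Cth-/- mice 30 of the 114 tested were higher on CysF and 9 lower, where 7.81% of all genes were called higher and 10.2% lower. The median log2 fold change was 0.33 over the lists and -0.01 over all genes. With the scaling to adipocyte genes the counts were 7 higher and 46 lower, where 0.915% of all genes were called higher and 71.3% lower. Among the signals upstream of Ucp1, 4 of 17 were higher and 1 lower. The fall was in Adrb3, the main beta-adrenergic receptor of rodent fat cells, at 64.6 ± 14.7 CPM in Cth-/- CysF libraries and 229 ± 29.9 CPM in Cth-/- CTRL libraries (log2 fold change -1.82 ± 0.21, adjusted p = 6.97e-05). Adcy3, an adenylyl cyclase that makes cyclic AMP, rose by 1.58 ± 0.23 to 409 ± 63.3 CPM, against 139 ± 56.1 CPM on CTRL (adjusted p = 3.14e-04).

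Of 24 activators of Ucp1 transcription, 1 was higher in BAT (4.17%) and none lower, against 7.81% of all genes called higher and 10.2% lower. It was Esrrb, an estrogen-related receptor at low level (3.21 ± 0.722 CPM in Cth-/- CysF and 0.959 ± 0.590 CPM in Cth-/- CTRL, 1.73 ± 0.36, adjusted p = 0.00435). Ppargc1a, which encodes the coactivator PGC-1 alpha, had 0.80 ± 0.53 (adjusted p = 0.316). Of 11 repressors 1 rose and 1 fell (9.09% each), near those shares of all genes. Nr1h3, the liver X receptor alpha, rose by 0.42 ± 0.11 (adjusted p = 0.0136; -0.22 with the scaling to adipocyte genes, 0.44 above its median), and Zfp423, a zinc finger factor that holds cells in the white state, fell by 0.79 ± 0.16 on the log2 scale (adjusted p = 0.00400). Of 22 genes enriched in brown or beige cells beside Ucp1, 10 rose and none fell. They included Bmp8b, a secreted factor of brown fat (2.23 ± 0.42, adjusted p = 0.00226), Gk, glycerol kinase (1.33 ± 0.33, adjusted p = 0.0116), and Slc27a2, an acyl-CoA synthetase and fatty acid carrier (1.28 ± 0.33, adjusted p = 0.0144). The calls of Slc27a2 and Nr1h3 were lost with the muscle score as a covariate. Cidea, a lipid droplet protein of brown fat, was at 1159 ± 31.2 CPM in Cth-/- CysF libraries and 1199.9 ± 179.8 CPM in Cth-/- CTRL libraries (-0.04 ± 0.11, adjusted p = 0.852; 0.16 within set B). Dio2, which activates thyroid hormone inside the cell, had 2.10 ± 0.79 (adjusted p = 0.0779).

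Among genes that carry heat production or fuel without Ucp1 in BAT, the members moved in both directions, where 7.81% of all genes were called higher and 10.2% lower. Of 8 uncoupling family members and ADP/ATP carriers 3 rose: Ucp3, Slc25a5, an ADP/ATP carrier (0.61 ± 0.19, adjusted p = 0.0350), and Slc25a20, the carnitine carrier (0.61 ± 0.18, adjusted p = 0.0284), which had -0.026 and -0.013 with the scaling to adipocyte genes, 0.63 and 0.64 above its median. The call of Slc25a5 was lost without number 12, 14, 16, 17 or 18 (adjusted p up to 0.103) and that of Slc25a20 without 12, 14, 17 or 18 (adjusted p up to 0.0900). Of 14 genes of creatine, calcium and lipid cycles 5 rose and 5 fell. The falls included Ckmt2, mitochondrial creatine kinase (-4.67 ± 1.17, adjusted p = 0.0129), Gamt, the last enzyme of creatine synthesis (-2.18 ± 0.39, adjusted p = 0.00170), and Atp2a1, the calcium pump of fast muscle (-2.90 ± 0.97, adjusted p = 0.0493). Ckmt2 and Atp2a1 are also muscle genes, and neither stayed called once the muscle score entered the fit. The calls of Ucp3, Slc25a5, Slc25a20 and Angptl4 were lost in that fit as well. Atp2a1 turned to 0.48 in that fit. Ckmt2 ran from -5.32 to -0.950 over the settings other than single numbers left out. Atp2a1 also lost its call without any 1 of 12 of the 16 numbers (-3.80 to -2.50 over all numbers left out, adjusted p up to 0.108). Of 18 fuel supply genes 6 rose and 2 fell, with Lpl, lipoprotein lipase, at 1.06 ± 0.17 (adjusted p = 8.27e-04), Cpt1a, which admits fatty acids to mitochondria, at 0.63 ± 0.17 (adjusted p = 0.0168; -0.0070 with the scaling to adipocyte genes, 0.65 above its median; not called without number 12 or 18, adjusted p up to 0.0641), and Angptl4, an inhibitor of lipoprotein lipase, at -0.83 ± 0.22 (adjusted p = 0.0168).

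In SFAT of Cth-/- mice more of the same lists were called, 51 of 114 higher and 4 lower, where 11.8% of all genes were called higher and 13.6% lower. The median was 0.50 over the lists and 0.03 over all genes, and with the scaling to adipocyte genes the counts were 22 higher and 39 lower, where 1.72% of all genes were called higher and 61.6% lower. Of 18 upstream signals 9 rose and 1 fell. Rgs2, a brake on G protein signals, rose by 1.43 ± 0.28 (adjusted p = 0.00206) and Rgs7, of the same family, by 1.12 ± 0.21 (adjusted p = 0.00156). Of 24 activators 9 rose. Ppara, which encodes PPAR alpha, was at 36.7 ± 6.07 CPM in Cth-/- CysF libraries and 12.1 ± 3.50 CPM in Cth-/- CTRL libraries (1.63 ± 0.21, adjusted p = 9.75e-05). Nr4a3, an early-response nuclear receptor, rose by 2.56 ± 0.57 (adjusted p = 0.00460) and Irf4, a cold-induced factor of fat cells, by 1.73 ± 0.51 (adjusted p = 0.0229). Prdm16, which fixes brown and beige identity, had -0.38 ± 0.15 (adjusted p = 0.0820). The repressors Nr1h3 (0.50 ± 0.14, adjusted p = 0.0137) and Nr2f2 (0.48 ± 0.17, adjusted p = 0.0450) rose as well, but had -0.11 each with the scaling to adipocyte genes, 0.47 and 0.48 above its median. The call of Nr2f2 was lost without any 1 of 10 of the 16 numbers (adjusted p up to 0.141) and without SFAT 14 and 20. Irf4 had 0.46 (adjusted p = 0.293) without SFAT 14 and 20, and lost its call without number 12, 14 or 20 alone.

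Of 21 brown and beige partners tested in SFAT 15 rose on CysF in Cth-/- mice and none fell, with a median of 1.57. Of all genes 11.8% were called higher and 13.6% lower. Dio2 was at 29.3, 31.3, 11.5 and 144 CPM in Cth-/- CysF libraries and at 2.07, 3.43, 1.74 and 6.68 CPM in Cth-/- CTRL libraries, which do not overlap (4.03 ± 0.68, adjusted p = 7.20e-04). Elovl3, which elongates fatty acids in brown fat, rose by 2.47 ± 0.68 (adjusted p = 0.0149) and Slc27a2 by 3.11 ± 0.62 (adjusted p = 0.00229). The call of Elovl3 was lost without number 20 (adjusted p = 0.0510) and without SFAT 14 and 20 (1.72, adjusted p = 0.107). Fabp3, a fatty acid binding protein of muscle and brown fat, had 1.78 ± 0.76 (adjusted p = 0.0991), and Otop1, a proton channel, 0.91 ± 0.37 (adjusted p = 0.0823). The interaction was called higher for 16 of these 21 genes, where 9.39% of all genes were. In Cth+/+ mice the diet called none of the 21, with a median of -0.52, where 0.0544% of all genes were called higher and 0.0121% lower.

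Fuel genes rose with Ucp1 in SFAT too, 10 of 18 with none lower, in a comparison that called 11.8% of all genes higher and 13.6% lower. They included Slc27a1, a fatty acid transporter (1.55 ± 0.16, adjusted p = 1.33e-05), Acadl and Acadvl, which open the oxidation of long fatty acids (1.07 ± 0.16, adjusted p = 3.62e-04, and 1.06 ± 0.19, adjusted p = 0.00123). Of the carriers, Slc25a5 (0.79 ± 0.22, adjusted p = 0.0162) and Slc25a20 (1.08 ± 0.19, adjusted p = 9.02e-04) rose. Of the 14 genes of other heat cycles 4 rose and 3 fell, with Dgat1, which makes triglyceride, at 0.82 ± 0.20 (adjusted p = 0.00712), Pck1, an enzyme of glycerol synthesis in fat, at 1.16 ± 0.37 (adjusted p = 0.0307) and Gamt at -1.89 ± 0.34 (adjusted p = 0.00126). The call of Pck1 was lost without number 12, 13, 14, 16 or 18 (adjusted p up to 0.0972) and without SFAT 14 and 20 (1.10, adjusted p = 0.0884), and that of Slc25a5 without number 17 (adjusted p = 0.0550). With the scaling to adipocyte genes Acadvl, Slc25a20, Slc25a5, Dgat1 and Pck1 were no longer called. Within set B, where the Cth-/- CysF group is SFAT 20 alone, Slc25a5 had 0.15 and Dgat1 0.14.

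In EFAT, where Ucp1 was near the limit of detection, 21 of 111 genes were higher and 12 lower, where 14.5% and 14.3% of all genes were. The median was 0.11 over the lists and 0.07 over all genes. Of 18 upstream signals 3 rose and 2 fell, among them Rgs2 (1.31 ± 0.35, adjusted p = 0.0134) and Prkar2b, a regulatory subunit of protein kinase A (-0.75 ± 0.17, adjusted p = 0.00466). Activators were called in 10 of 23, 9 of them higher, such as Ppargc1a (1.58 ± 0.36, adjusted p = 0.00603), Irf4 (2.54 ± 0.49, adjusted p = 0.00228) and Nr4a3 (2.61 ± 0.36, adjusted p = 2.33e-04). The repressors Nr2f2 (0.75 ± 0.26, adjusted p = 0.0445) and Foxp1 (0.50 ± 0.16, adjusted p = 0.0303) rose and Zfp423 fell by 0.45 ± 0.11 on the log2 scale (adjusted p = 0.00890). The call of Nr2f2 was lost without any 1 of 11 of the 16 numbers (adjusted p up to 0.133) and without EFAT 11, 16 and 20 (0.79, adjusted p = 0.0656), and that of Foxp1 without number 12, 14, 17 or 18 (adjusted p up to 0.1005). Neither was called with the library set as a term in the fit. Rgs2 lost its call without number 20 (adjusted p = 0.0545) and had 0.73 (adjusted p = 0.121) without EFAT 11, 16 and 20.

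Of 20 partners tested in EFAT 3 rose, or 15%, near the 14.5% of all genes: Cox8b, a cytochrome oxidase subunit (2.11 ± 0.66, adjusted p = 0.0282), Pdk4, which spares glucose (2.28 ± 0.53, adjusted p = 0.00652), and Ehhadh, of peroxisomal oxidation (0.73 ± 0.26, adjusted p = 0.0489; -0.14 within set A). The call of Ehhadh was lost without any 1 of 13 of the 16 numbers (adjusted p up to 0.194), and that of Cox8b without number 13, 14, 15, 17, 18 or 20 (adjusted p up to 0.0706). Neither was called with the library set as a term in the fit. Cidea had 0.36 ± 0.94 (adjusted p = 0.789; -0.17 within set A and -0.15 within set B) and Dio2 -1.49 ± 0.79 (adjusted p = 0.168). Of the carriers, Slc25a27, a further member of the uncoupling family, rose by 1.36 ± 0.24 (adjusted p = 0.00132) beside Ucp2. The falls included Dgat2, a triglyceride enzyme, from the list of heat without Ucp1 (-3.83 ± 0.46, adjusted p = 8.82e-05), Gamt (-2.24 ± 0.33, adjusted p = 3.93e-04) and Gatm, the first enzyme of creatine synthesis (-1.27 ± 0.27, adjusted p = 0.00398). Lpl (-1.09 ± 0.25, adjusted p = 0.00587) and Mgll, monoglyceride lipase (-1.18 ± 0.22, adjusted p = 0.00166), fell, and Slc27a1 rose by 1.72 ± 0.15 (adjusted p = 8.54e-06).

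**Figure D3:**
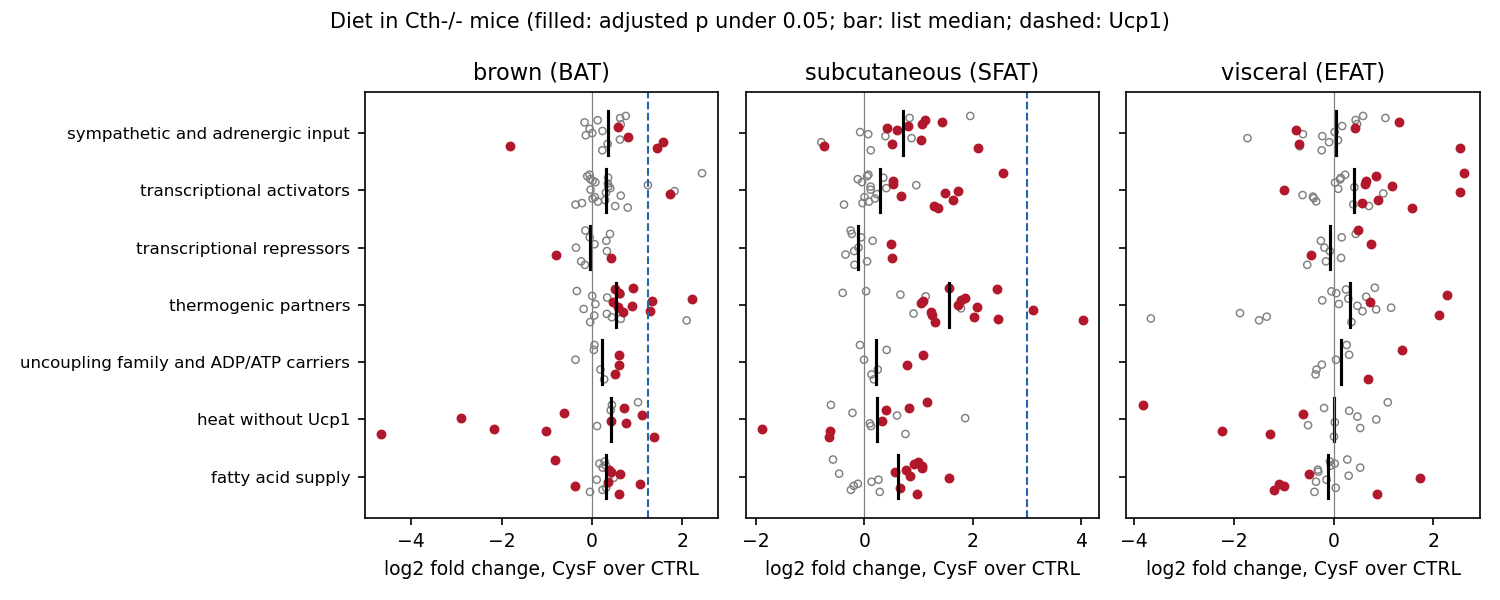
Log2 fold changes (CysF over CTRL in Cth-/- mice) of the members of 7 lists in BAT, SFAT and EFAT, filled red where the adjusted p was under 0.05, with black bars at the list medians and a dashed line at Ucp1, which EFAT lacks. The partners' median is 1.57 in SFAT, and Ucp1 at 3.00 lies to the right of most members.

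The 5 genes whose level followed Ucp1 most closely were not the same in each depot, a difference that was not tested. Over all 48 libraries Pearson's r of log2 CPM was highest for Cidea (0.979), Cpn2 (0.969), Cpt1b (0.969), Aspg (0.960), Elovl3 (0.958), Tuba8 (0.956), Cox8b (0.947) and Ntrk3 (0.945) of 10075 genes. These values describe mostly the gap between depots, as the points of 1 depot share the tissue. Within the 16 SFAT libraries Fabp3 (0.974), Cidea (0.970), Cpt1b (0.964), Adck3 (0.946) and Acot11 (0.939) came first, and 18 of 10005 genes had an r of at least 0.9. Within the 16 BAT libraries Tomm70a (0.962), Zfyve16 (0.957), Prkar1a (0.955), Rragc (0.955) and Slc30a9 (0.954) came first, and 81 of 9455 genes had an r of at least 0.9. No gene was in both lists of 5. Pank1 had an r of 0.922 in BAT and 0.910 in SFAT, and Cpt1b 0.849 and 0.964, whereas Cidea had -0.0799 and 0.970.

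Cidea in SFAT shows the likeness library by library. It was at 179, 169, 82.2 and 189 CPM in Cth-/- CysF libraries (numbers 16, 17, 18 and 20) and 42.3, 79.0, 45.4 and 90.4 CPM in Cth-/- CTRL libraries (numbers 12 to 15). Cth+/+ CysF libraries held 16.1, 9.53, 28.9 and 14.4 CPM (numbers 7, 8, 10 and 11) and Cth+/+ CTRL libraries 43.4, 31.4, 26.9 and 72.9 CPM (numbers 1 to 4). Number 18 was the low library of its group, numbers 13 and 15 the higher pair of theirs, number 10 the high one of its group, and numbers 4 and 3 the highest and lowest of theirs, as for Ucp1. The other partners shared part of this order: number 18 was the lowest of its group in 16 of 21 partners, against 15.5% of all genes, and number 3 in 18 of 21, against 38.5% of all genes. Number 4 was the highest of its group in 13 of 21, against 21.5% of all genes.

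**Figure D4:**
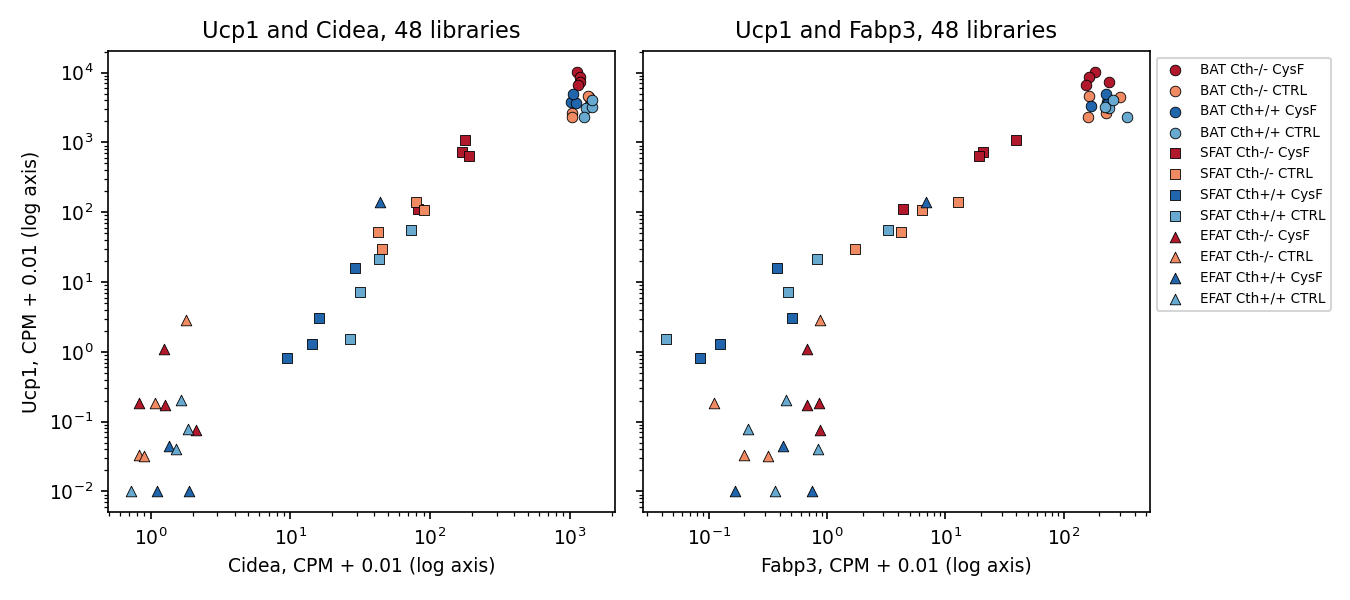
Ucp1 against Cidea and against Fabp3 (CPM plus 0.01 on log axes) in 48 libraries, with depots as symbols and groups as colours. SFAT libraries form a line from 0.814 to 1095 CPM of Ucp1, BAT libraries lie together at the upper right, and EFAT number 11 at 140.5 CPM lies near the SFAT libraries.

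With the group means removed, Cidea (0.897), Fabp3 (0.788), Cpn2 (0.778), Cpt1b (0.756) and Acot11 (0.735) followed Ucp1 most closely over 48 libraries. Without EFAT 11 these values were 0.723, 0.718, 0.547, 0.446 and 0.694, and 3 of the 5 stayed among the first 5. Over the 16 EFAT libraries Pank1 (0.802), Acss1 (0.798), Polr3f (0.782), Gpbp1 (0.759) and Mbd1 (0.729) came first, and these values were 0.300, 0.368, 0.473, 0.497 and 0.0202 without number 11. By the lowest r of the 3 depots the order was Pank1 (0.802), Acss1 (0.798), Acot11 (0.672), Vps54 (0.630), Acsl5 (0.629), Ppara (0.604), Armt1 (0.590) and Mterf4 (0.580).

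EFAT 11, a Cth+/+ CysF library, carried a set of brown fat genes together with Ucp1. Of 25 genes with at least 20 CPM in BAT and at least 50 times the EFAT level in Cth+/+ CTRL mice, 22 were highest in number 11 among the 16 EFAT libraries, against 20.3% of all genes. The list was chosen after the value of Ucp1 in number 11 was seen and holds muscle genes such as Ttn. Their excess over the median of the other 15 EFAT libraries had a median of 2.87% of the BAT level of the same group, with quartiles of 2.52 and 3.50%. In the other 15 libraries the same median ran from -0.16 to 0.0904%. Ucp1 itself had an excess of 3.59%, Cidea 3.74%, Cox8b 3.72%, Otop1 3.60% and Zic1, with 8 reads, 3.01%, though Zic1 at 0.218 CPM was not the highest of the depot, where another library had 0.289 CPM. Of the other brown fat markers, Lhx8, with 2 reads, had 5.08%, Prdm16 -4.29%, Ebf2 -5.93% and Epsti1 -31.1%. Over the 12 partners outside the 25 genes, 4 were highest in number 11 and the excess ran from -103% for Eva1a to 9.04% for Dio2. The visceral marker Wt1 was at 6.71 to 13.9 CPM in the Cth+/+ CysF libraries of EFAT, number 11 included, and at 8.09 to 11.4 CPM in the Cth+/+ CTRL libraries. Whether brown fat tissue was present in this sample was not tested.

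The gain of SFAT in Cth-/- mice can be set against the BAT level too, though as a difference of group means and against BAT of Cth-/- CysF mice, so that the percentages are not on the same footing as those of EFAT 11. The difference between Cth-/- CysF and Cth-/- CTRL means was 6.81% of the BAT Cth-/- CysF level for Ucp1. It was 10.0% for Cox8b, 7.82% for Cidea, 4.91% for Otop1, 4.72% for Acot11 and -0.0901% for Ntrk3, a neurotrophin receptor. Over the 10 partners that are also among those 25 brown fat genes the range was -0.0901 to 10.0% in SFAT, with a median of 7.03%, and 2.26 to 3.74% in EFAT 11, with a median of 3.03%. Zic1 differed by 0.276% of its BAT level in SFAT. The markers Lhx8, Ebf2 and Prdm16 differed by 15.5, -3.29 and -12.7%, and Epsti1, at 0.419 CPM in BAT, by -2444%.

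**Figure D5:**
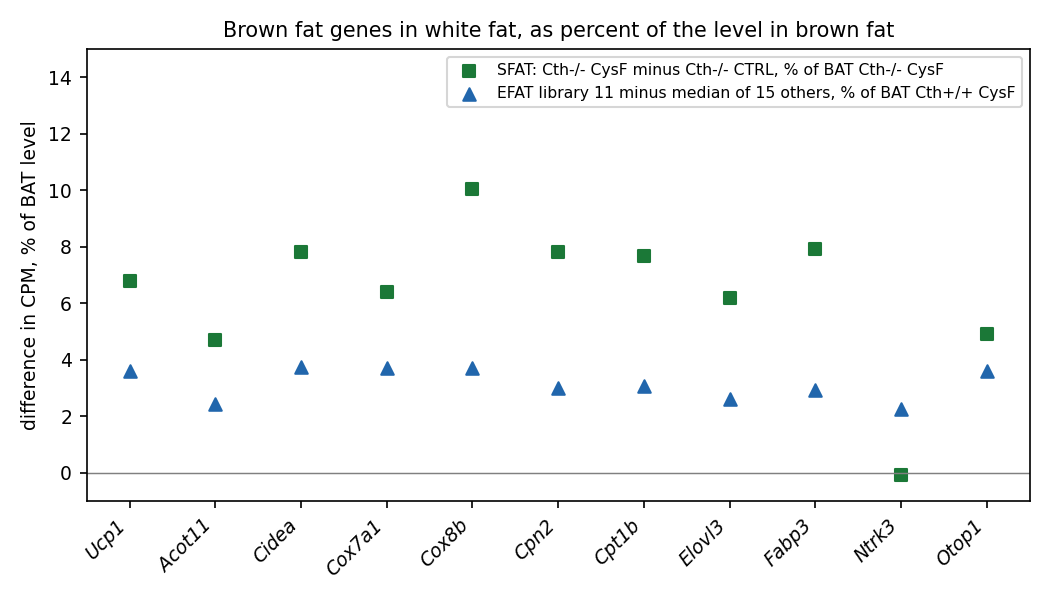
Differences in CPM as percent of the level in BAT for Ucp1 and 10 partners, for SFAT (squares, Cth-/- CysF minus Cth-/- CTRL) and for EFAT library 11 (triangles, minus the median of the other 15 libraries). The triangles lie between 2.26 and 3.74% and the squares between -0.0901 and 10.0%.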

How the data were processed

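Poly(A) RNA of 48 libraries was counted by the authors per gene: the deposited values are expected counts from RSEM, not scaled. STAR, FastQC, Picard and RSEM and the build mm10 are named in the submitters' processing notes, without versions or an annotation release. Since 5.31 to 8.16% of a library's values were fractional, they were rounded first. Each depot's 16 libraries were fitted in 4 groups with edgeR 4.0.16 (R 4.3.3; quasi-likelihood test, TMM, filterByExpr with a minimum count of 10 and total of 15), and all 48 in 12 groups for depot differences. A gene was called at a Benjamini-Hochberg adjusted p under 0.05 over all genes tested; SE is the log2 fold change over the root of F. Ucp1 failed the filter in EFAT, where an exact permutation test of log2 CPM (prior count 2) replaced the planned edgeR test. The fit was tested on simulated data. Coordinates are from GENCODE M21 (GRCm38), which matched 47310 of 47729 IDs; exon lengths are unions of its exons.

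Ucp1, its gene lists, the comparisons and the alternatives were chosen with earlier results of these data known. Named by rule were Ucp1, Cth, Ucp2, Ucp3 and the neighbours of Ucp1; per list and depot up to 3 called members of at least 1 CPM with the largest change and up to 2 that were not called, where 1 member is not reported here; and the genes most like Ucp1 by Pearson's r, among protein-coding genes of at least 5 CPM. Ntrk3, Zic1, Otop1, Acot11 and Cox8b in the last comparison, and EFAT 11, were chosen after their values were seen. Alternatives were RLE scaling, scaling to 9 adipocyte genes, no low-count filter, no mitochondrial genes, robust dispersion, DESeq2 1.42.0, a fit of 2 groups alone, single replicates left out, the library set as a term or as 2 fits, a muscle covariate (BAT) and the replicate number as a block; for levels no scaling factor, and for likeness Spearman's rho. A fit of all 48 libraries for the comparisons within depots, and fits without the 6 libraries that stand apart, were added after the data were seen.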

Additional observations from a re-analysis of the deposited data

Results flagged for a closer look

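In 4 of the 12 groups of Ucp1 values, 1 library lay far from the other 3 by a gap test of CPM. Its nominal rate of about 1 in 20 groups by chance holds for normally spread values, which skewed CPM near 0 are not. The gap test was not run on log2 CPM, the scale of the other tests, so these flags may depend on the scale. These were EFAT number 17 of Cth-/- CysF at 1.07 CPM, EFAT number 15 of Cth-/- CTRL at 2.87 CPM, EFAT number 11 of Cth+/+ CysF at 140.5 CPM and SFAT number 10 of Cth+/+ CysF at 16.0 CPM. In EFAT number 11 other brown fat genes were high as well. EFAT number 15 had a median excess of 0.0904% of the BAT level over 25 brown fat genes, and EFAT number 17 had -0.00950%. SFAT number 10 was the highest of its group in 9 of 21 partners, against 24.6% of all genes. Number 11 of that group, with Ucp1 at 1.27 CPM, was also the highest in 9 of 21, against 41.7% of all genes.

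In SFAT the diet response of Ucp1 differed between the genotypes by a log2 fold change of 5.05 (edgeR interaction, adjusted p = 0.0202). In Cth-/- mice 3 of 4 CysF libraries were above all CTRL libraries, and in Cth+/+ mice no CysF library was above all CTRL libraries.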

How the results depend on the processing

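The BAT diet call in Cth-/- mice kept its direction and its call in all settings but the fit of all 48 libraries (1.24, adjusted p = 0.524); without single replicates it ran from 1.11 to 1.40. The BAT genotype difference on CysF was not called with the scaling to adipocyte genes (0.41), within set B (0.69) or in the fit of all 48 libraries (1.06, adjusted p = 0.547), and ran from 0.96 to 1.20 without single replicates. The BAT interaction was called with DESeq2 (0.93) and within set A (1.02), and was 0.43 with the scaling to adipocyte genes. The BAT diet value in Cth+/+ mice was -0.022 within set A, and the genotype value on CTRL was -0.021 with the scaling to adipocyte genes and -0.088 within set B. The SFAT diet call in Cth-/- mice was lost within set A (2.38), within set B (4.06), without SFAT 14 and 20 (2.70) and in the fit of all 48 libraries (2.98, adjusted p = 0.0677), and ran from 2.63 to 3.38 without single replicates, 8 of which ended the call. The SFAT interaction was lost within set B (5.62) and ran from 3.93 to 6.69 without single replicates. The SFAT genotype call on CysF was kept in all edgeR and DESeq2 settings, from 6.13 to 9.31. Within set B the Cth-/- CysF group of BAT and SFAT is 1 library. Where a call was lost the cause was not tested, but single sets and fits without replicates have fewer samples.

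In EFAT the differences in mean log2 CPM ran, without single replicates, from -0.51 to 1.26 for the diet in Cth-/- mice, from -0.67 to 2.99 for the diet in Cth+/+ mice and from -1.72 to 1.95 for the genotype on CysF. Without EFAT 11, 16 and 20 the diet in Cth+/+ mice gave -0.67 and the genotype on CysF 2.31. edgeR without the filter gave -1.09 for the diet in Cth-/- mice and -6.62, called, for the genotype on CysF. Fits within the library sets were not run for Ucp1 in EFAT. The difference of the diet response of EFAT minus BAT ran from -3.65 to 0.91 without single replicates.

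The same replicate numbers appear in each depot. Deviations of same-numbered libraries correlated with a median of 0.342 between BAT and SFAT, 0.0987 between BAT and EFAT and 0.278 between SFAT and EFAT, with 13, 8 and 13 of 16 pairs over 0.1 and 12, 8 and 10 of 16 libraries closest to their own number. Since some pairs were under 0.1 and the labels state no shared animal, the numbers were not taken to pair the libraries. The values, highest between BAT and SFAT and next between SFAT and EFAT, are a hint from the data, not the design, that some numbers do. With the replicate block the diet response was 1.61 for SFAT minus BAT, -1.96 for EFAT minus BAT and 3.57 for SFAT minus EFAT, none called, and BAT over EFAT was 15.54, BAT over SFAT 7.91 and SFAT over EFAT 7.63, all called as without it.

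The counts of list members in BAT were 7 higher and 46 lower with the scaling to adipocyte genes, 9 and 3 with the muscle covariate and 16 and 1 within set B, and the lower count was 3 within set A and 5 in the fit of only the 2 groups compared. In SFAT they were 22 and 39 with the scaling to adipocyte genes, and the lower count was 7 within set B and from 2 to 6 without single replicates. In EFAT they were 1 and 0 within set A and 2 and 1 within set B, each with a group of 1 library, and the lower count was 19 with DESeq2 and from 11 to 20 without single replicates. Of the 11 neighbouring groups 1 pair rather than 2 did not overlap without scaling factors and with the scaling to adipocyte genes.

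Of 1803 refits of named genes, 179 lost a call, 18 gained one and 23 turned sign. Of 54 called genes 14 lost the call without some single replicate, 7 without the libraries that stand apart, 29 within set A and 32 within set B, and 13 kept it in every setting. With the scaling to adipocyte genes, which lowers the median of all genes in BAT and SFAT, 10 turned sign, and all 10 stayed above the median of all genes: Nr1h3 (-0.22), Ucp2 (-0.40), Ucp3 (-0.12), Slc25a5 (-0.026), Slc25a20 (-0.013) and Cpt1a (-0.0070) in BAT, and Nr1h3 (-0.11), Nr2f2 (-0.11), Ucp2 (-0.44) and Ucp3 (-0.47) in SFAT. Within set A these were Ucp2 (-0.25) and Ucp3 (-0.035) in SFAT and Ehhadh (-0.14) and Cidea (-0.17) in EFAT. Within set B they were Cidea (0.16) and Ucp2 (-0.058) in BAT and Cidea (-0.15) and Ucp3 (0.95) in EFAT. Without SFAT 14 and 20 Ucp2 had -0.070 and Ucp3 -0.058, the muscle covariate gave Atp2a1 0.48 in BAT, and Cidea in BAT ran from -0.085 to 0.018 without single replicates, turning positive without number 13 or 15. With Spearman's rho in place of Pearson's r, 3 of the 8 genes most like Ucp1 over 48 libraries stayed among the first 8. Of the first 5 genes, 2 stayed in BAT, 3 in SFAT, 0 in EFAT and 3 with the group means removed. By the lowest r of the 3 depots 2 of 8 stayed.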
